A study of Mus musculus with 16 samples.

Results

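H3K27 acetylation (H3K27ac), a histone mark found at active promoters and enhancers, was measured in mouse liver over 9 genes of growth arrest and cell cycle entry: Cdkn1a, Cdkn1b, Ccnd1, Myc, Gadd45a, Gadd45b, Gadd45g, Btg1 and Btg2. A counted region belonged to one of these genes when its midpoint lay inside the gene, or when it lay in no protein-coding gene and that gene was the nearest protein-coding one within 50 kb. This gave 51 of the 52645 regions in the deposited table, and 9 of the 11474 genes that received any region. The genes were chosen by name, with earlier H3K27ac results of the same libraries known, and the rule itself uses no measured value. The tests below therefore describe these libraries and are not independent support for the choice of genes. The study crossed genotype with diet in 4 groups of 3 H3K27ac libraries: NCoR1 knockout (KO) on PTU/LID, wild type (WT) on PTU/LID, KO on chow and WT on chow, all with a strain label of C57BL/6J. PTU/LID is a low-iodine diet with 0.15% propylthiouracil, a drug that blocks thyroid hormone synthesis. It was given from 6 weeks of age for 3 weeks, and the livers of all 4 groups were taken on day 21. NCoR1 is a corepressor that unliganded thyroid hormone receptors recruit to their target genes together with a histone deacetylase. Neither the Cre line nor the deleted part of Ncor1 is stated in the labels. Libraries are named by their titles, so that Ptulid_NCoRKO_27ac_211 is a KO library on PTU/LID and Chow_WT_27ac_96 a WT library on chow. No label ties each number to its own animal. The p-values therefore reflect library-to-library spread, which may be technical.

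Cell cycle entry from the resting state is set by cyclin-dependent kinases, which cyclin D1 (Ccnd1) switches on and the inhibitors p21 (Cdkn1a) and p27 (Cdkn1b) hold back. The transcription factor p53 induces Cdkn1a, Gadd45a and Btg2 after DNA damage, while Myc drives growth and represses Cdkn1a in many cell types. Gadd45 proteins are small stress-induced proteins that bind p21 and a kinase upstream of p38 and JNK, and Btg proteins recruit the CCR4-NOT complex, which shortens the poly(A) tails of messenger RNAs. Most hepatocytes of the adult liver rest outside the cycle, and Cdkn1a and Gadd45b are known there as genes induced by injury and in regeneration.

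The libraries differed in depth and in mitochondrial content. Counts summed over the regions ran from 3719180 to 7416187 in KO on PTU/LID, 3095704 to 4729424 in WT on PTU/LID, 5628758 to 6707960 in KO on chow and 2965505 to 5831372 in WT on chow. The mitochondrial chromosome's share of counts ran from 0.717% to 17.25%, and was highest in library Chow_NCoRKO_27ac_146. It lay between 2.27% and 17.25% in 7 libraries: 1 of KO on PTU/LID, 1 of WT on PTU/LID, all 3 of KO on chow and 2 of WT on chow. The 6 regions of Ncor1 held 54.2 ± 6.33 CPM in KO and 54.7 ± 7.38 CPM in WT on PTU/LID, and 54.1 ± 9.55 CPM in KO and 55.2 ± 9.17 CPM in WT on chow (SD, n = 3 each), so the mark at this gene does not check the genotype. In whole liver, fewer cells of a type and less acetylation per cell cannot be told apart.

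Levels are given as CPM, counts scaled to the size of the library, and differences as log2 fold changes with their standard errors. All 9 genes held counted regions, from 2 at Gadd45b to 14 at Btg2, and the region lengths ran from 200 to 1793 bp with a median of 510 bp. Of the 51 regions, 17 had their midpoint inside the gene and 34 outside. RefSeq starts were at hand for 7 of the 9 genes, not for Ccnd1 and Myc, and 17 of the 45 regions of those 7 genes lay within 2.5 kb of an annotated start. Promoters are shown for Cdkn1a, Gadd45g and Btg1, the genes that passed over their summed regions in some comparison, and for Gadd45b and Btg2, where a region over the start passed, so that the marked regions can be set beside the letters at the start. They are RefSeq sequences of GRCm38.p6, the assembly of mm10, read from 250 bases before the start up to the base before it, in the direction of transcription. Capitals mark the motifs found in them.
Cdkn1a, first start, chr17:29090729-29090978, plus strand: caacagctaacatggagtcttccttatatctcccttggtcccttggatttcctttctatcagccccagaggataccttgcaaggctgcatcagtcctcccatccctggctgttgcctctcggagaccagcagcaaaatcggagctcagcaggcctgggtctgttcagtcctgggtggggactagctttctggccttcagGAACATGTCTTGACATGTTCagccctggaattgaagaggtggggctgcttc
Cdkn1a, second start, chr17:29093519-29093768, plus strand: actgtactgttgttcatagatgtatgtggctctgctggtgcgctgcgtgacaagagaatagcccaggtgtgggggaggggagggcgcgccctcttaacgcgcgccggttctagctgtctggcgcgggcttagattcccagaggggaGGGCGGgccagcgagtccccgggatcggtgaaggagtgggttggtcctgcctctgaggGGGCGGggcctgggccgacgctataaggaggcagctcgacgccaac
Gadd45b, chr10:80929841-80930090, plus strand: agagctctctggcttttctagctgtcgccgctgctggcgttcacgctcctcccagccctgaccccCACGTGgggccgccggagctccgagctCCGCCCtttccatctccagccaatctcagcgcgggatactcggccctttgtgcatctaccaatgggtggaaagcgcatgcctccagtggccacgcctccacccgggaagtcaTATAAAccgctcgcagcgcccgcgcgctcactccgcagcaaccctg
Gadd45g, chr13:51846425-51846674, plus strand: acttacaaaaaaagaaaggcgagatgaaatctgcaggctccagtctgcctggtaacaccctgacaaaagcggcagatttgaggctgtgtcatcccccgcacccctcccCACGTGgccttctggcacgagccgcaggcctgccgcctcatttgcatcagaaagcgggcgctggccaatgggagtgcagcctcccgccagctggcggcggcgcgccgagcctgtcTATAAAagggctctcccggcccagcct
Btg1, chr10:96616751-96617000, plus strand: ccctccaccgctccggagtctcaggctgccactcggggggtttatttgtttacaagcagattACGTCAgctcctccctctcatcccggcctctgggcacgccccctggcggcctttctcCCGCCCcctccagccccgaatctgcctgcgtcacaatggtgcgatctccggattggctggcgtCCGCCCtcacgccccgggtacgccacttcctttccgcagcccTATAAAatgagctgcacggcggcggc
Btg2, chr1:134079156-134079405, minus strand: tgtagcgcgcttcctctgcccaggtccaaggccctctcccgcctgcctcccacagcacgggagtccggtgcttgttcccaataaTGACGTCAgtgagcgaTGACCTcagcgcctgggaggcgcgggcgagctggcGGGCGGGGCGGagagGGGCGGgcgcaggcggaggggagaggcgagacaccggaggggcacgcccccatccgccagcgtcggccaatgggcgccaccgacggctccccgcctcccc

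Motifs were searched on both strands in windows from 250 bases before to 50 after a start, and each share below is that of 32851 RefSeq promoters of the same length. The capitals at the first start of Cdkn1a are a match to the 20-letter p53 response element with at most 1 mismatch, at -51, and 0.0883% of promoters hold such a match. The capitals at its second start are GC boxes, GGGCGG, 2 in all, which occur in 35.7% of promoters. Gadd45b also holds 1 GC box and Btg1 holds 2, printed as the reverse complement CCGCCC, and Cdkn1b and Gadd45a, whose promoters are not printed, hold 1 each. Gadd45b and Gadd45g share the E-box CACGTG, found in 7.15% of promoters. Gadd45b, Gadd45g and Btg1 each hold the TATA box TATAAA, found in 13.6%. Btg1 holds TGACGT, a half-site of the cAMP response element present in 7.51% of promoters, once, printed as its reverse complement ACGTCA, and Btg2 holds it on both strands in 1 overlapping run. Btg2 also holds the nuclear receptor half-site AGGTCA, printed as its reverse complement TGACCT and present in 16.3% of promoters, and 3 GC boxes, some of which overlap. These matches describe letters and do not show that a factor was bound. No counted region of Cdkn1a reached its first start. The promoter-proximal region of Cdkn1a, chr17:29094100-29095098, follows the second start.

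In KO livers, PTU/LID went with more H3K27ac at Cdkn1a, Gadd45g and Btg1 than chow, and at single regions of Btg2 and Gadd45b. Over the summed regions, 3 of 9 genes passed in KO, all higher, where 7.63% of all 11462 tested genes passed and 4.37% passed as higher. In WT livers the same diet contrast passed for 1 of 9 genes, Cdkn1a, where 7.81% of all genes passed and 3.82% passed as higher. KO exceeded WT on PTU/LID at 2 of 9 genes, Cdkn1a and Gadd45g, where 6.67% of all genes passed and 5.34% passed as higher. On chow, KO and WT differed at 0 of 9 genes by edgeR's quasi-likelihood test, where 4.10% of all genes passed. DESeq2 also gave 0, and 2 of the 9 had an unadjusted edgeR p below 0.05. The test of whether the diet difference differed between KO and WT passed for 0 of 9 genes by edgeR, where 0.419% of all did. By edgeR, 3 of the 9 had an unadjusted p below 0.05. DESeq2 gave 1, and shares of all genes that passed by DESeq2 are not given here. Median log2 fold changes of the 9 genes stood beside those of all genes as follows: 0.28 and -0.01 for the diet in KO, 0.00 and -0.02 for the diet in WT, 0.30 and -0.02 for KO against WT on PTU/LID, and 0.02 and -0.01 for KO against WT on chow.

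**Figure D1:**
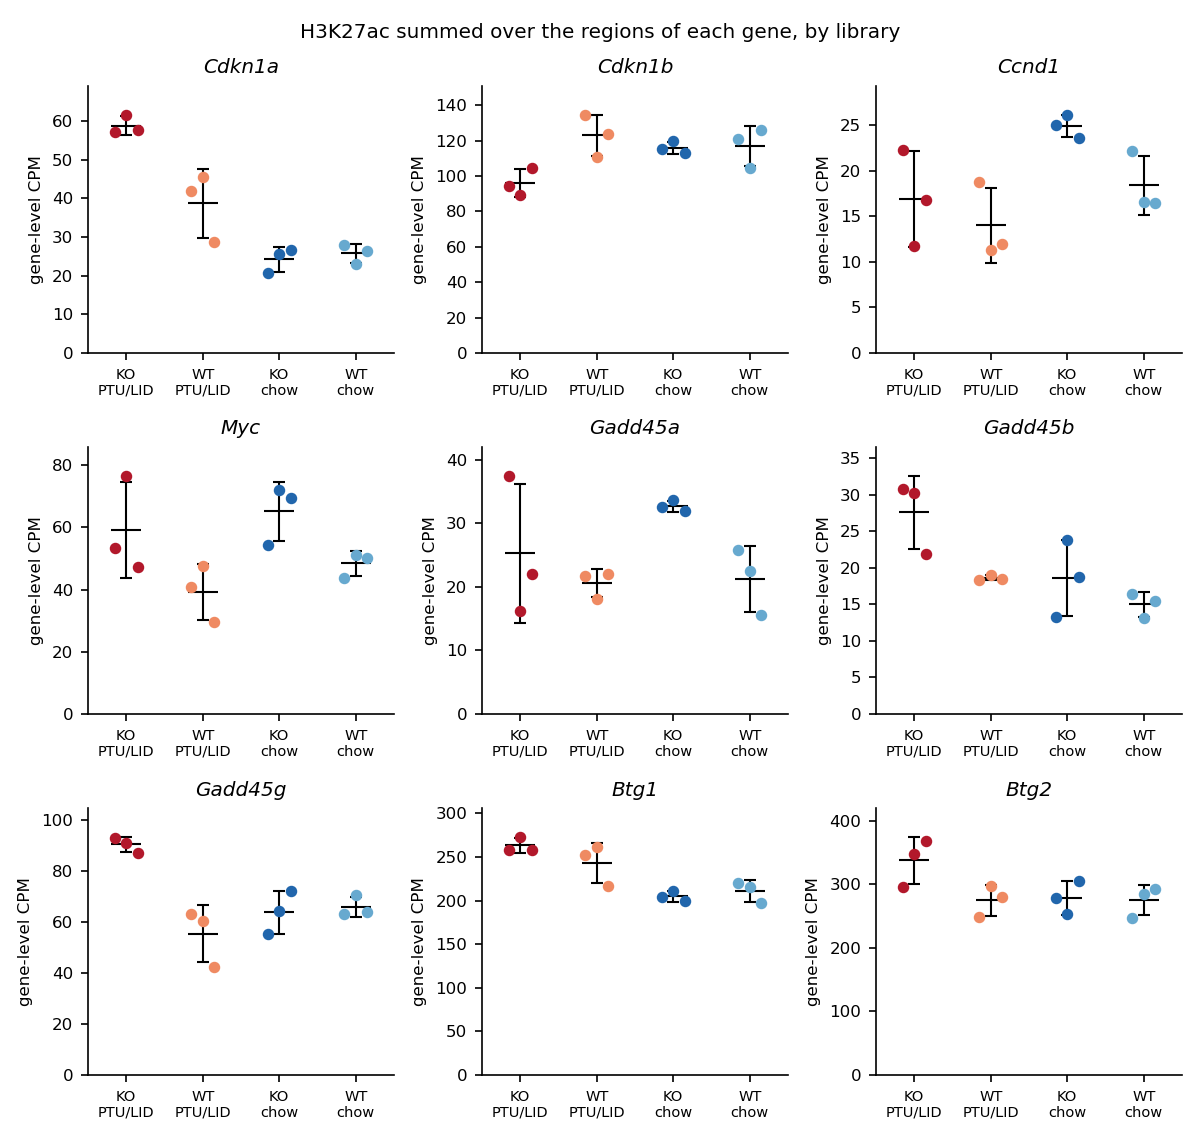
H3K27ac in CPM, summed over the regions of each of the 9 genes, with 1 point per library and the mean of each group of 3 with its SD. Cdkn1a lies between 57.1 and 61.6 CPM in KO on PTU/LID, above all libraries of the other groups, and Gadd45g likewise lies between 87.3 and 93.2 CPM.

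The single regions were counted in the same way, and did not always pass at the genes whose sums passed. Of the 51 regions, 7 passed for the diet in KO, all higher, where 6.21% of 52606 tested regions passed and 3.28% passed as higher. For the diet in WT, 3 passed, 1 higher at Cdkn1a and 2 lower at Cdkn1b, where 3.70% of all regions passed, 1.81% as higher and 1.90% as lower. KO against WT on PTU/LID gave 3, all higher, where 3.86% of all regions passed and 3.17% passed as higher. On chow, 0 regions passed between KO and WT by edgeR, where 2.43% of all regions passed, with 4 at an unadjusted p below 0.05. The difference between the diet contrasts passed at 0 regions by edgeR, where 0.230% of all regions passed, with 7 at an unadjusted p below 0.05. DESeq2 gave 0 regions in both of these comparisons, and its shares of all regions are not given here. In all, 11 of the 51 regions passed in at least 1 of the 5 comparisons and 40 in none, where 12.0% of all regions passed in at least 1.

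Cdkn1a, on chromosome 17 from 29090979 to 29100722, encodes p21, the inhibitor of cyclin-dependent kinases best known as a p53 target. Its 3 regions summed to 57.1, 61.6 and 57.5 CPM in KO on PTU/LID, 41.8, 45.6 and 28.6 CPM in WT on PTU/LID, 20.6, 25.5 and 26.7 CPM in KO on chow, and 27.9, 23.1 and 26.3 CPM in WT on chow. KO libraries on PTU/LID were above all others, the WT libraries on PTU/LID were above both chow groups, and the chow groups overlapped. Cdkn1a rose with PTU/LID in KO livers by 1.27 ± 0.16 on the log2 scale (SE, adjusted p = 1.24e-05), with group means of 58.8 ± 2.48 CPM on PTU/LID and 24.3 ± 3.20 CPM on chow (SD, n = 3 each). In WT livers the difference was 0.58 ± 0.17 (adjusted p = 0.0416), with means of 38.7 ± 8.93 CPM on PTU/LID and 25.8 ± 2.44 CPM on chow. KO exceeded WT on PTU/LID by 0.61 ± 0.16 (adjusted p = 0.0213), and on chow the difference was -0.08 ± 0.18 (adjusted p = 0.845). The diet difference in KO exceeded that in WT by 0.70 ± 0.24, which did not pass (adjusted p = 0.282). The KO diet call held under each of 14 alternatives, between 1.15 and 1.35, while the WT diet call was lost in 9 of 14 and the call between genotypes on PTU/LID in 6 of 14.

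The WT diet call was lost without library Ptulid_WT_27ac_135 (0.52, adjusted p = 0.0638) or Ptulid_WT_27ac_155 (0.43, adjusted p = 0.230), and without library Chow_WT_27ac_96 (0.63, adjusted p = 0.0751), Chow_WT_27ac_99 (0.51, adjusted p = 0.156) or Chow_WT_27ac_106 (0.60, adjusted p = 0.0987). It was also lost, at 0.36 (adjusted p = 0.276), without the regions that lie in noncoding genes, and with regions within 10 kb (0.36, adjusted p = 0.347), with only the groups compared (0.59, adjusted p = 0.0688) and with a term for the library of highest mitochondrial share (0.58, adjusted p = 0.0520). Cdkn1a has no region within 2.5 kb of a gene end, so that alternative gives no value for it. The Cdkn1a call between genotypes on PTU/LID was lost without library Ptulid_NCoRKO_27ac_232 (0.56, adjusted p = 0.0984) or Ptulid_NCoRKO_27ac_239 (0.63, adjusted p = 0.0608) and without library Ptulid_WT_27ac_280 (0.43, adjusted p = 0.162), and also without the regions in noncoding genes (0.49, adjusted p = 0.125), with regions within 10 kb (0.58, adjusted p = 0.0964) and with only the groups compared (0.61, adjusted p = 0.0637).

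The larger part of the Cdkn1a signal outside the gene came from chr17:29078280-29078991, 12.3 kb from the gene. Its midpoint lies inside the long noncoding RNA gene Trp53cor1, also known as lincRNA-p21, which runs from 29057474 to 29079126. The region's signal therefore cannot be assigned to Cdkn1a alone. This region held 22.2, 28.6 and 25.9 CPM in KO on PTU/LID, 18.5, 18.1 and 10.9 CPM in WT on PTU/LID, 7.44, 12.1 and 9.78 CPM in KO on chow, and 8.55, 5.80 and 9.92 CPM in WT on chow. It rose with PTU/LID in KO by 1.40 ± 0.23 (adjusted p = 6.17e-05) and in WT by 0.93 ± 0.26 (adjusted p = 0.0345). In neither genotype did the diet groups overlap. The WT call was lost without library Ptulid_WT_27ac_135 (0.81, adjusted p = 0.0626) or Ptulid_WT_27ac_155 (0.81, adjusted p = 0.162), or without library Chow_WT_27ac_96 (0.95, adjusted p = 0.0836) or Chow_WT_27ac_99 (0.75, adjusted p = 0.173), or with only the groups compared (0.95, adjusted p = 0.0526). The region inside the gene, chr17:29094100-29095098, held 23.8, 21.0 and 22.2 CPM in KO on PTU/LID, 16.7, 17.9 and 11.9 CPM in WT on PTU/LID, 8.71, 7.82 and 12.4 CPM in KO on chow, and 12.0, 10.8 and 12.6 CPM in WT on chow. It rose with PTU/LID in KO by 1.19 ± 0.22 (adjusted p = 0.000271), and its difference in WT, where the diet groups overlapped, was 0.38 ± 0.23 (adjusted p = 0.389). The third region, chr17:29079232-29079535, was weak at 4.15, 4.004, 2.38 and 3.16 mean CPM in KO on PTU/LID, WT on PTU/LID, KO on chow and WT on chow, and passed in no comparison.

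Cdkn1b, on chromosome 6 from 134920401 to 134925525, encodes p27, which holds resting cells out of the cycle. Its 7 regions summed to 94.1, 89.5 and 104.5 CPM in KO on PTU/LID, 134.2, 110.9 and 123.9 CPM in WT on PTU/LID, 115.2, 119.7 and 112.9 CPM in KO on chow, and 120.9, 104.3 and 125.8 CPM in WT on chow. KO on PTU/LID lay below WT on PTU/LID and below KO on chow without overlap. Neither difference passed, at -0.35 ± 0.12 (adjusted p = 0.0677) between KO and WT on PTU/LID and -0.27 ± 0.11 (adjusted p = 0.168) for the diet in KO. The genotype difference passed with DESeq2 (-0.35, adjusted p = 0.0492) and with a term for the 2 sets of libraries by mitochondrial share (-0.35, adjusted p = 0.0323). All 7 regions had a negative diet difference in KO, between -0.83 and -0.05, but they were read from the same libraries, so these signs are not independent.

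The strongest Cdkn1b region, chr6:134920362-134921530 over the start, averaged 33.1 ± 7.58 CPM in KO and 46.2 ± 5.95 CPM in WT on PTU/LID, and 42.9 ± 3.42 CPM in KO and 40.7 ± 4.95 CPM in WT on chow, and passed in no comparison. A pair of weaker regions passed as lower with PTU/LID in WT, where 1.90% of all regions did. The region chr6:134922128-134922526, inside the gene, held 5.38, 1.29 and 3.90 CPM in WT on PTU/LID and 9.82, 5.80 and 9.26 CPM in WT on chow, a difference of -1.29 ± 0.35 (adjusted p = 0.0324) without overlap. The region chr6:134932959-134933170, in the long noncoding RNA gene Lockd, held 3.58, 0.861 and 1.03 CPM in WT on PTU/LID and 2.85, 7.18 and 4.96 CPM in WT on chow, a difference of -1.58 ± 0.44 (adjusted p = 0.0321). In this region the diet groups of WT overlapped. The first call was lost without library Ptulid_WT_27ac_155 (-0.87, adjusted p = 0.233) or Ptulid_WT_27ac_280 (-1.41, adjusted p = 0.0881), or without library Chow_WT_27ac_96 (-1.17, adjusted p = 0.113) or Chow_WT_27ac_106 (-1.18, adjusted p = 0.117), or with only the groups compared (-1.26, adjusted p = 0.0611). The Lockd region's call was lost without library Ptulid_WT_27ac_155 (-1.23, adjusted p = 0.195) or Ptulid_WT_27ac_280 (-1.28, adjusted p = 0.201), or without library Chow_WT_27ac_99 (-1.28, adjusted p = 0.175) or Chow_WT_27ac_106 (-1.59, adjusted p = 0.0785), or with only the groups compared (-1.56, adjusted p = 0.0600). Without library Ptulid_WT_27ac_135, the highest of WT on PTU/LID in this region, the Lockd difference was -2.38 (adjusted p = 0.00179). Neither region passed in KO, at -0.67 ± 0.34 (adjusted p = 0.292) inside the gene and -0.83 ± 0.41 (adjusted p = 0.267) in Lockd.

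**Figure D2:**
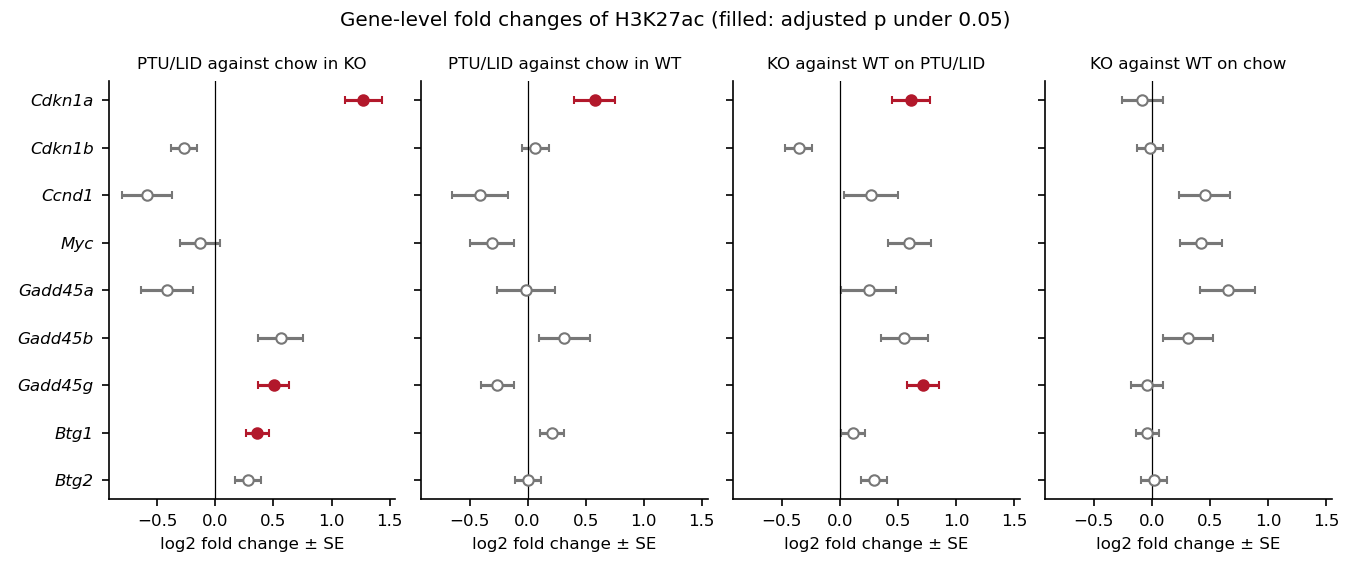
Log2 fold change of H3K27ac summed per gene, with its standard error, for the 9 genes in the 4 comparisons between groups. Filled red points passed at an adjusted p below 0.05: Cdkn1a for the diet in KO and in WT and for KO against WT on PTU/LID, Gadd45g for the diet in KO and for KO against WT on PTU/LID, and Btg1 for the diet in KO.

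Ccnd1 and Myc, which promote cell cycle entry, passed in no comparison over their summed regions. Ccnd1, on chromosome 7 from 144929931 to 144939831, held 22.3, 11.7 and 16.9 CPM in KO on PTU/LID, 18.7, 11.3 and 12.0 CPM in WT on PTU/LID, 25.1, 26.1 and 23.6 CPM in KO on chow, and 22.2, 16.6 and 16.5 CPM in WT on chow. KO on chow lay above both KO on PTU/LID and WT on chow without overlap. The Ccnd1 differences were -0.59 ± 0.22 (adjusted p = 0.104) for the diet in KO and 0.45 ± 0.22 (adjusted p = 0.259) for KO against WT on chow. Without library Ptulid_NCoRKO_27ac_211 the diet difference in KO passed, at -0.80 (adjusted p = 0.0220). Its strongest region, chr7:144941144-144941639, averaged 7.94 ± 1.82 CPM in KO on PTU/LID and 11.6 ± 1.86 CPM in KO on chow. One of the 3 Ccnd1 regions, chr7:144929935-144930224, lies in 2 annotated coding genes, so its reads cannot be assigned to Ccnd1 alone.

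Myc, on chromosome 15 from 61985341 to 61990361, encodes a transcription factor of growth and ribosome production. It held 53.3, 76.6 and 47.3 CPM in KO on PTU/LID, 40.8, 47.5 and 29.7 CPM in WT on PTU/LID, 54.2, 71.8 and 69.3 CPM in KO on chow, and 43.6, 51.2 and 50.2 CPM in WT on chow. All KO chow libraries lay above all WT chow libraries, while on PTU/LID the genotypes overlapped. The differences between KO and WT were 0.60 ± 0.18 on PTU/LID (adjusted p = 0.0530) and 0.42 ± 0.18 on chow (adjusted p = 0.187). The PTU/LID difference of Myc passed with DESeq2 (0.59, adjusted p = 0.0357), without library Ptulid_NCoRKO_27ac_211 (0.66, adjusted p = 0.0459) or Ptulid_NCoRKO_27ac_239 (0.74, adjusted p = 0.0264), and without library Ptulid_WT_27ac_155 (0.77, adjusted p = 0.0261). It also passed with regions within 2.5 kb of a gene end (0.615, adjusted p = 0.0479) and with the term for the 2 sets of mitochondrial share (0.60, adjusted p = 0.0461). The chow difference of Myc passed with only the groups compared (0.42, adjusted p = 0.0432). Its strongest region, chr15:61985539-61986942, averaged 29.8 ± 7.74 CPM in KO and 19.3 ± 4.06 CPM in WT on PTU/LID, a difference of 0.64 ± 0.21 (adjusted p = 0.0802). The diet differences of Myc were -0.13 ± 0.17 in KO (adjusted p = 0.738) and -0.31 ± 0.19 in WT (adjusted p = 0.345).

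Of the Gadd45 genes, Gadd45g passed over its summed regions, Gadd45b at 1 region, and Gadd45a nowhere. Gadd45a, on chromosome 6 from 67035096 to 67037407, held 37.5, 16.2 and 22.0 CPM in KO on PTU/LID, 21.7, 18.1 and 22.0 CPM in WT on PTU/LID, 32.5, 33.6 and 31.9 CPM in KO on chow, and 25.8, 22.5 and 15.6 CPM in WT on chow. KO on chow lay above WT on chow without overlap, by 0.65 ± 0.24, which did not pass (adjusted p = 0.116), except with only the groups compared (0.65, adjusted p = 0.0177). In KO the diet difference of Gadd45a was -0.42 ± 0.23 (adjusted p = 0.312), and without library Ptulid_NCoRKO_27ac_211, the highest of its group, it passed at -0.77 (adjusted p = 0.0136). The strongest Gadd45a region, chr6:67035858-67036564, averaged 11.9 ± 4.83 CPM in KO and 10.7 ± 2.13 CPM in WT on PTU/LID, and passed in no comparison. Of its 3 regions, 2 lie in the long noncoding RNA gene E230016M11Rik, whose signal cannot be told apart from that of Gadd45a.

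Gadd45b, on chromosome 10 from 80930091 to 80932204, held 30.8, 30.3 and 21.9 CPM in KO on PTU/LID, 18.4, 19.0 and 18.5 CPM in WT on PTU/LID, 13.3, 23.8 and 18.7 CPM in KO on chow, and 16.5, 13.1 and 15.4 CPM in WT on chow. Its 2 regions together passed in no comparison, at 0.56 ± 0.20 for the diet in KO (adjusted p = 0.0855) and 0.56 ± 0.20 for KO against WT on PTU/LID (adjusted p = 0.109). Without library Chow_NCoRKO_27ac_146, the library with the highest mitochondrial share, the KO diet difference passed at 0.77 (adjusted p = 0.0346), as it did with a term for that library (0.77, adjusted p = 0.0348). The region over the start, chr10:80930062-80930629, held 14.8, 15.5 and 11.8 CPM in KO on PTU/LID, 7.77, 8.61 and 11.7 CPM in WT on PTU/LID, 7.08, 10.05 and 6.88 CPM in KO on chow, and 7.28, 5.52 and 5.46 CPM in WT on chow. This region rose with PTU/LID in KO by 0.81 ± 0.24 (adjusted p = 0.0372), and the diet groups did not overlap in KO or in WT. In WT the difference was 0.66 ± 0.28 (adjusted p = 0.191). The KO call was lost without library Ptulid_NCoRKO_27ac_211 (0.77, adjusted p = 0.0694) or Ptulid_NCoRKO_27ac_232 (0.72, adjusted p = 0.166), or without library Chow_NCoRKO_27ac_122 (0.73, adjusted p = 0.154) or Chow_NCoRKO_27ac_190 (0.71, adjusted p = 0.166), or with the term for the 2 sets of mitochondrial share (0.81, adjusted p = 0.102).

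Gadd45g, on chromosome 13 from 51846675 to 51848475, had the largest log2 difference between genotypes on PTU/LID among the 9 genes. Its 7 regions summed to 93.2, 91.3 and 87.3 CPM in KO on PTU/LID, 63.2, 60.4 and 42.5 CPM in WT on PTU/LID, 55.2, 64.3 and 72.0 CPM in KO on chow, and 63.3, 70.6 and 64.0 CPM in WT on chow. All KO libraries on PTU/LID lay above the other 9 libraries, and all WT libraries on PTU/LID lay below those of WT on chow. Gadd45g was higher in KO than in WT on PTU/LID by 0.72 ± 0.14 (adjusted p = 0.00202), with means of 90.6 ± 2.98 CPM in KO and 55.4 ± 11.2 CPM in WT (SD, n = 3 each). The diet difference was 0.50 ± 0.14 in KO (adjusted p = 0.0230) and -0.26 ± 0.14 in WT (adjusted p = 0.287), and on chow the difference between genotypes was -0.04 ± 0.14 (adjusted p = 0.905). The diet difference in KO exceeded that in WT by 0.76 ± 0.20, which did not pass with edgeR (adjusted p = 0.0992) and passed with DESeq2 (0.75, adjusted p = 0.0463), without library Ptulid_WT_27ac_135 (0.86, adjusted p = 0.0337) and with the term for the 2 sets of mitochondrial share (0.82, adjusted p = 0.0210). The genotype call on PTU/LID held in each of 15 alternatives, between 0.55 and 0.82. The diet call in KO was lost in 7 of 15: with regions within 10 kb (0.43, adjusted p = 0.0815) or within 2.5 kb of a gene end (0.43, adjusted p = 0.0933), with a term for the library of highest mitochondrial share (0.51, adjusted p = 0.0678), without library Ptulid_NCoRKO_27ac_232 (0.50, adjusted p = 0.0702) or Ptulid_NCoRKO_27ac_239 (0.53, adjusted p = 0.0577), and without library Chow_NCoRKO_27ac_122 (0.41, adjusted p = 0.154) or Chow_NCoRKO_27ac_146 (0.51, adjusted p = 0.0658).

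The regions of Gadd45g shared these signs. All 7 were higher with PTU/LID than with chow in KO, between 0.30 and 0.96 on the log2 scale, and all 7 were lower in WT, between -0.54 and -0.07, although none passed alone in either contrast. The 7 regions were read from the same libraries, so their signs are not independent. The strongest, chr13:51846670-51847680 over the start, averaged 28.1 ± 1.27 CPM in KO and 19.2 ± 4.78 CPM in WT on PTU/LID, against 20.4 ± 3.41 CPM in KO and 21.8 ± 3.64 CPM in WT on chow, and did not pass. Just before the start, chr13:51845729-51846286 held 18.7, 17.1 and 13.1 CPM in KO on PTU/LID and 9.56, 8.398 and 8.01 CPM in WT on PTU/LID. This region was higher in KO by 0.91 ± 0.24 (adjusted p = 0.0187) without overlap. At 25.9 kb past the start, chr13:51872445-51872704 held 5.11, 4.14 and 5.83 CPM in KO and 2.99, 2.58 and 0.821 CPM in WT on PTU/LID, higher in KO by 1.28 ± 0.38 (adjusted p = 0.0491). The call before the start was lost without library Ptulid_NCoRKO_27ac_211 (0.81, adjusted p = 0.0513) or Ptulid_NCoRKO_27ac_232 (0.86, adjusted p = 0.0867), or without library Ptulid_WT_27ac_155 (0.89, adjusted p = 0.0697) or Ptulid_WT_27ac_280 (0.85, adjusted p = 0.0976). The distal call was lost without library Ptulid_NCoRKO_27ac_211 (1.27, adjusted p = 0.0629), Ptulid_NCoRKO_27ac_232 (1.42, adjusted p = 0.0664) or Ptulid_NCoRKO_27ac_239 (1.142, adjusted p = 0.208), or without library Ptulid_WT_27ac_155 (1.51, adjusted p = 0.0713) or Ptulid_WT_27ac_280 (0.85, adjusted p = 0.332), or with only the groups compared (1.28, adjusted p = 0.0922) or a term for the library of highest mitochondrial share (1.28, adjusted p = 0.0592).

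**Figure D3:**
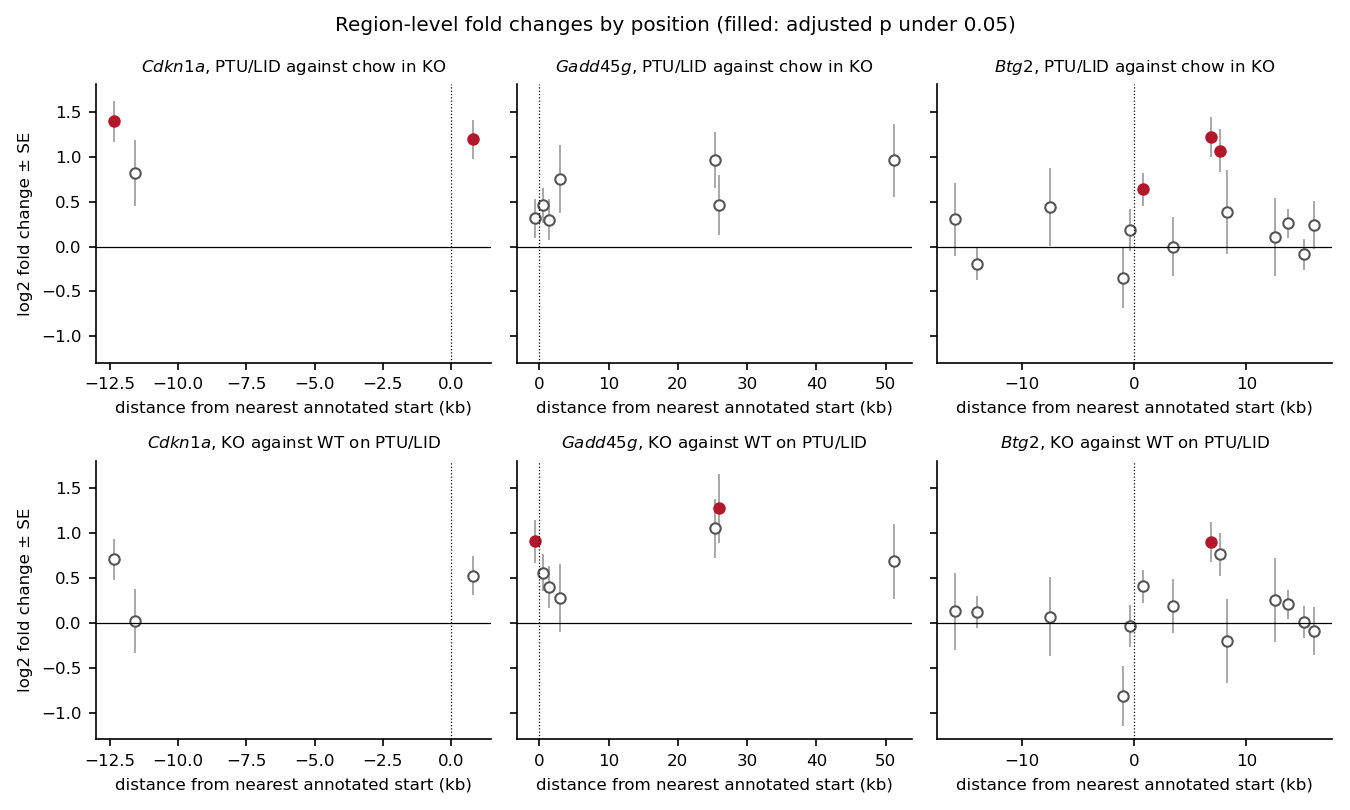
Log2 fold change with its SE of each region of Cdkn1a, Gadd45g and Btg2 against the distance of its midpoint from the nearest annotated start, in kb, for the diet in KO (upper panels) and for KO against WT on PTU/LID (lower panels). Filled red points passed at an adjusted p below 0.05, among them the Cdkn1a regions at -12.3 and 0.83 kb for the diet in KO.

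Per length of counted region, Btg1, Btg2 and Cdkn1b carried the highest mean levels of the 9 genes. Over the 12 libraries they averaged 29.4, 28.8 and 28.6 CPM per kb of region, and the other 6 genes averaged between 17.2 and 20.6 CPM per kb. Btg1, on chromosome 10 from 96617001 to 96622813, restrains proliferation in lymphocytes and other cells. Its 9 regions summed to 258.5, 273.5 and 258.3 CPM in KO on PTU/LID, 252.3, 261.0 and 217.3 CPM in WT on PTU/LID, 204.6, 211.3 and 199.3 CPM in KO on chow, and 220.0, 215.9 and 197.0 CPM in WT on chow. PTU/LID exceeded chow without overlap in KO but not in WT. Btg1 rose with PTU/LID in KO by 0.36 ± 0.10 (adjusted p = 0.0266), with means of 263.4 ± 8.71 CPM on PTU/LID and 205.1 ± 6.04 CPM on chow (SD, n = 3 each), while in WT the difference was 0.21 ± 0.10 (adjusted p = 0.219). The KO call was lost in 8 of 15 alternatives: with regions within 10 kb (0.28, adjusted p = 0.120), with a term for the library of highest mitochondrial share (0.38, adjusted p = 0.0609), without library Ptulid_NCoRKO_27ac_232 (0.34, adjusted p = 0.105) or Ptulid_NCoRKO_27ac_239 (0.38, adjusted p = 0.0724), without library Chow_NCoRKO_27ac_122 (0.36, adjusted p = 0.0928), Chow_NCoRKO_27ac_146 (0.39, adjusted p = 0.0589) or Chow_NCoRKO_27ac_190 (0.34, adjusted p = 0.110), and with regions within 2.5 kb of a gene end (0.23, adjusted p = 0.412).

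At Btg1 a distal region passed and the region over the start did not. The region over the start, chr10:96616957-96618653, averaged 55.7 ± 2.261 CPM in KO on PTU/LID and 53.2 ± 0.506 CPM in KO on chow, a difference of 0.07 ± 0.16 (adjusted p = 0.873). At 31.8 kb from the gene, chr10:96654340-96654933 held 25.8, 33.3 and 26.5 CPM in KO on PTU/LID and 21.0, 15.4 and 14.4 CPM in KO on chow. This distal region rose by 0.76 ± 0.20 (adjusted p = 0.0169) without overlap. Its call was lost without library Ptulid_NCoRKO_27ac_232 (0.63, adjusted p = 0.136) and without library Chow_NCoRKO_27ac_146 (0.71, adjusted p = 0.0805) or Chow_NCoRKO_27ac_190 (0.65, adjusted p = 0.118), and with a term for the library of highest mitochondrial share (0.70, adjusted p = 0.0852). Whether the start and the distal region differed in their response was not tested.

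Btg2, on chromosome 1 from 134074865 to 134079155, is induced by p53 and by growth factors. Its 14 regions summed to 296.3, 348.0 and 369.1 CPM in KO on PTU/LID, 248.6, 296.8 and 280.4 CPM in WT on PTU/LID, 278.0, 252.7 and 305.7 CPM in KO on chow, and 247.9, 284.3 and 292.8 CPM in WT on chow. The groups overlapped in the sums, and no comparison of the whole gene passed. The diet difference in KO was 0.28 ± 0.11 (adjusted p = 0.143), and it passed with regions within 10 kb (0.56, adjusted p = 0.00421) or within 2.5 kb of a gene end (0.52, adjusted p = 0.0240), with those in noncoding genes left out (0.45, adjusted p = 0.0104) and without library Ptulid_NCoRKO_27ac_211 (0.36, adjusted p = 0.0409). KO against WT on PTU/LID, at 0.30 ± 0.11 (adjusted p = 0.128), passed with regions within 10 kb (0.41, adjusted p = 0.0414), without library Ptulid_NCoRKO_27ac_211 (0.38, adjusted p = 0.0350) and with the term for the 2 sets of mitochondrial share (0.29, adjusted p = 0.0305).

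Of the 14 regions of Btg2, 3 passed as higher with PTU/LID in KO, where 3.28% of all regions did. A positive difference, passing or not, was seen at 11 of the 14. The region chr1:134071948-134072672, 6.84 kb past the start and beyond the far end of the gene, held 18.9, 23.0 and 22.4 CPM in KO on PTU/LID, 8.66, 15.5 and 10.1 CPM in WT on PTU/LID, 9.07, 9.68 and 9.02 CPM in KO on chow, and 11.4, 11.9 and 8.76 CPM in WT on chow. All KO libraries on PTU/LID lay above the other 9. It rose with PTU/LID in KO by 1.22 ± 0.22 (adjusted p = 0.000271), a call that held in all 13 alternatives, and was higher in KO than in WT on PTU/LID by 0.90 ± 0.23 (adjusted p = 0.0137). The genotype call was lost without library Ptulid_NCoRKO_27ac_232 (0.85, adjusted p = 0.0750) or Ptulid_NCoRKO_27ac_239 (0.87, adjusted p = 0.0702), or without library Ptulid_WT_27ac_135 (0.76, adjusted p = 0.0647) or Ptulid_WT_27ac_280 (0.81, adjusted p = 0.0973). Its neighbour chr1:134071018-134071913 averaged 21.5 ± 4.20 CPM in KO on PTU/LID and 10.2 ± 2.79 CPM in KO on chow, and rose by 1.07 ± 0.24 (adjusted p = 0.00289). With a term for the 2 sets of libraries by mitochondrial share that call was lost (0.73, adjusted p = 0.112).

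Inside Btg2, the region chr1:134077459-134079159 at the start held 59.1, 76.3 and 78.4 CPM in KO on PTU/LID and 43.2, 38.3 and 56.2 CPM in KO on chow, and rose by 0.64 ± 0.18 (adjusted p = 0.0236). The diet groups of KO did not overlap. This call was lost without library Ptulid_NCoRKO_27ac_232 (0.59, adjusted p = 0.111) or Ptulid_NCoRKO_27ac_239 (0.56, adjusted p = 0.134) and without library Chow_NCoRKO_27ac_122 (0.59, adjusted p = 0.118) or Chow_NCoRKO_27ac_146 (0.53, adjusted p = 0.156), and, at 0.345 (adjusted p = 0.271), with the term for the 2 sets of mitochondrial share and, at 0.52 (adjusted p = 0.157), with a term for the library of highest share. The strongest region given to Btg2, chr1:134092214-134093949, lies in the long noncoding RNA gene Gm32039 and averaged 69.6 ± 14.2 CPM in KO and 64.1 ± 10.1 CPM in WT on PTU/LID, against 79.9 ± 8.03 CPM in KO and 71.8 ± 13.8 CPM in WT on chow. It passed in no comparison.

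**Figure D4:**
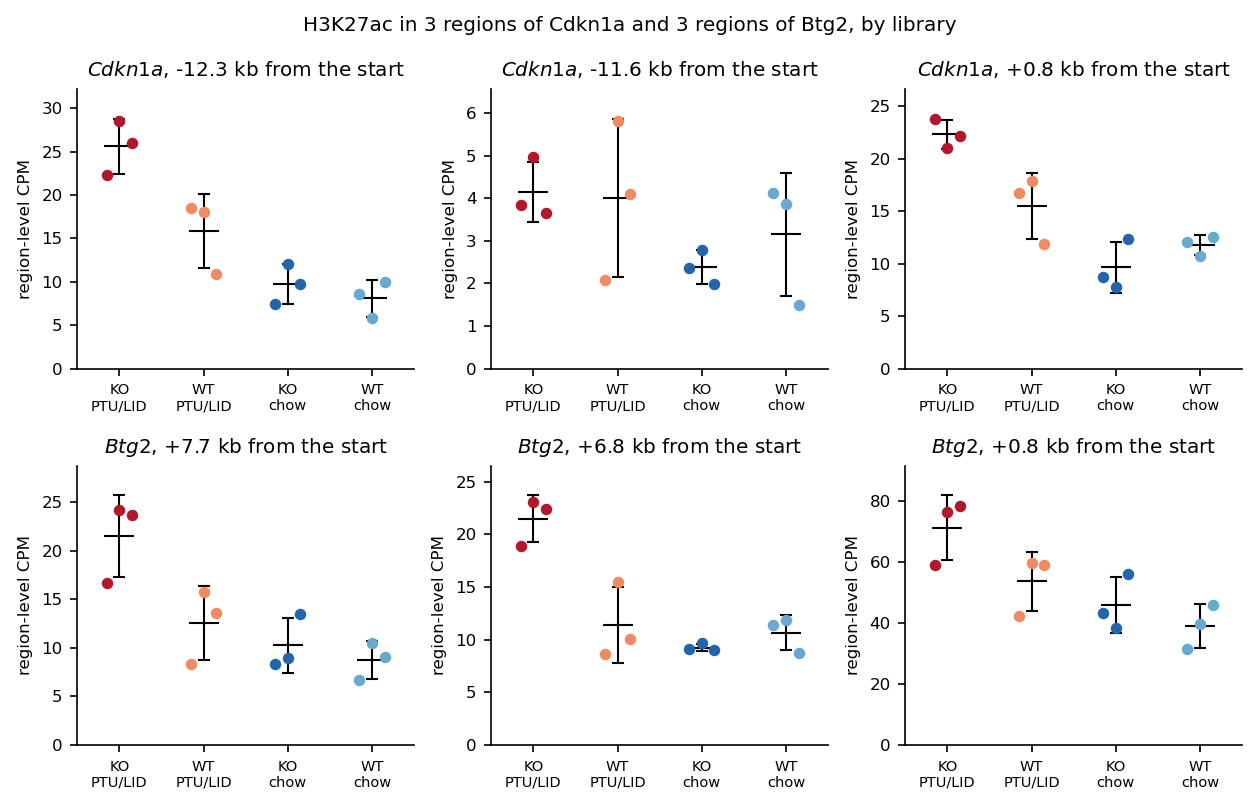
H3K27ac of single regions in CPM, for the 3 regions of Cdkn1a and the 3 called regions of Btg2, titled by distance from the start. Each library is 1 point, beside the mean of each group of 3 with its SD. At the Cdkn1a region 12.3 kb from the gene the 3 KO libraries on PTU/LID lie between 22.2 and 28.6 CPM and the 3 KO libraries on chow between 7.44 and 12.1 CPM.

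Regions at the distance limit are described without a test. The farthest region kept, of Gadd45g at 49.4 kb, averaged 3.4996, 2.29, 1.79 and 2.59 CPM in KO on PTU/LID, WT on PTU/LID, KO on chow and WT on chow. The nearest region left out, of Myc at 53.1 kb, averaged 2.99, 1.9996, 3.46 and 2.07 CPM in the same groups. A Gadd45g region left out at 63.4 kb averaged 7.12 CPM in KO and 1.97 CPM in WT on PTU/LID, and 4.78 CPM in KO and 1.99 CPM in WT on chow. A strong Btg1 region was also left out, at 68.0 kb, with 78.4 CPM in KO and 73.6 CPM in WT on PTU/LID, and 63.8 CPM in KO and 53.5 CPM in WT on chow.

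Among the genes most like Cdkn1a across the 12 libraries, by Pearson's r of log2 CPM summed per gene and leaving out genes within 1 Mb, were Marf1 (r = 0.943), Zfp872 (r = 0.939), L3mbtl1 (r = 0.939) and Gng7 (r = 0.936). Gng7, a G protein subunit gene, averaged 232.01 ± 29.2 CPM in KO and 149.5 ± 26.4 CPM in WT on PTU/LID, and 121.9 ± 9.06 CPM in KO and 104.5 ± 16.04 CPM in WT on chow (SD, n = 3 each). Among the 9 genes, Btg1 followed Cdkn1a most closely (r = 0.934), then Gadd45b (0.781), Gadd45g (0.647) and Btg2 (0.586). Myc stood at 0.07, Gadd45a at -0.26, Ccnd1 at -0.43 and Cdkn1b at -0.57. These points share the libraries, their depth and their groups, and the values are a description.

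Other genes of the same pathway were read from a list of 57, chosen by function, of which 42 had a tested region. The shares of all 11462 tested genes that passed, beside which these counts stand, were 7.63% for the diet in KO, 7.81% for the diet in WT, 6.67% for KO against WT on PTU/LID, 4.10% for KO against WT on chow and 0.419% for the difference between the diet contrasts. For the diet in KO, 2 of the 42 were higher, Ccnd3 (0.57 ± 0.14), another D-type cyclin, and Mycl (0.80 ± 0.18), a relative of Myc. In the same contrast 4 were lower: the CDK inhibitor gene Cdkn2c (-0.42 ± 0.10), the kinase gene Cdk6 (-0.37 ± 0.10), the retinoblastoma relative Rbl1 (-0.69 ± 0.17) and the deadenylase subunit Cnot8 (-0.62 ± 0.11). For the diet in WT, 2 were higher, Ccng1 (0.59 ± 0.17) and the MYC antagonist Mxd1 (0.75 ± 0.18), and 2 were lower, Rbl1 (-0.68 ± 0.18) and Cnot8 (-0.85 ± 0.12). KO was higher than WT on PTU/LID at 3, the p53 targets Bbc3 (0.62 ± 0.11) and Trp53inp1 (0.54 ± 0.14) and also Cnot8 (0.80 ± 0.12). It was lower at 2, Ccng1 (-0.57 ± 0.16), also a p53 target, and Mxd4 (-0.44 ± 0.12). Bbc3, which encodes the death protein PUMA, averaged 182.7 ± 24.7 CPM in KO and 119.6 ± 4.52 CPM in WT on PTU/LID (SD, n = 3 each, adjusted p = 0.00109 with edgeR's quasi-likelihood test). Ccng1 averaged 22.5 ± 1.95 CPM in KO and 33.0 ± 1.95 CPM in WT on PTU/LID (adjusted p = 0.0324). On chow, KO was higher at 2, Tob1 (0.41 ± 0.11), a relative of the Btg genes, and Cnot8 (0.58 ± 0.11), and lower at 0. Cnot8, Tob1 and Ccng1 lie on chromosome 11, as does Ncor1, and whether their position matters was not tested. None of the 42 passed for the difference between the diet contrasts. The median log2 fold changes of the 42 genes lay between 0.01 and 0.09 over the 5 comparisons, and those of all genes between -0.02 and 0.01.

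Markers of liver cell types were read in the same way. All 8 hepatocyte markers had tested regions, and their summed level ran from 4109 to 4357 CPM in KO on PTU/LID, 2739 to 4053 CPM in WT on PTU/LID, 3117 to 3525 CPM in KO on chow and 2897 to 3788 CPM in WT on chow, so it was also highest on average where Cdkn1a was highest. Of these 8, 2 passed for the diet in KO and the same 2 for the diet in WT, Ttr and Apoa2, all higher, where 7.63% of all genes passed in KO and 7.81% in WT. Endothelial markers, 8 of 9 tested, summed to 606 to 639 CPM in KO and 675 to 741 CPM in WT on PTU/LID, and to 619 to 646 CPM in KO and 780 to 827 CPM in WT on chow. Macrophage markers, 3 of 8 tested with Adgre1, Clec4f, Marco, Vsig4 and Cd5l without a tested region, summed to 33.1 to 47.5 CPM in KO and 33.8 to 35.6 CPM in WT on PTU/LID, and to 33.4 to 37.3 CPM in KO and 47.8 to 65.1 CPM in WT on chow. Lymphocyte markers, 2 of 6 tested with Cd3e, Cd8a and Cd79a among those without a tested region, summed to 74.2 to 75.7 CPM in KO and 50.2 to 67.9 CPM in WT on PTU/LID, and to 105.9 to 142.9 CPM in KO and 99.1 to 103.0 CPM in WT on chow. Stellate cell markers, 3 of 7 tested with Pdgfrb, Reln, Lrat and Col1a1 without a tested region, summed to 11.7 to 20.8 CPM in KO and 20.1 to 27.4 CPM in WT on PTU/LID, and to 15.7 to 22.8 CPM in KO and 25.04 to 30.8 CPM in WT on chow. Cholangiocyte markers, 2 of 5 tested with Krt19, Krt7 and Epcam without a tested region, summed to 44.1 to 59.9 CPM in KO and 49.97 to 70.6 CPM in WT on PTU/LID, and to 45.9 to 54.8 CPM in KO and 36.4 to 49.4 CPM in WT on chow. Of the mean sums in WT on chow, Spi1 held 48.3 of 58.7 CPM for macrophages and Cd4 66.5 of 101.2 CPM for lymphocytes. Sox9 held 35.2 of 42.0 CPM for cholangiocytes. The macrophage, lymphocyte and cholangiocyte sums therefore mostly follow 1 gene each. For KO against WT on PTU/LID no marker of these lists passed. For the diet in KO, the endothelial marker Tek and the lymphocyte marker Cd4 (-1.03 ± 0.16) also passed, both lower. The other lymphocyte marker tested, Ptprc, was higher in that contrast without passing (0.31 ± 0.19, adjusted p = 0.387 with edgeR's quasi-likelihood test). For the diet in WT, where Cdkn1a and regions of Cdkn1b passed, the macrophage marker Spi1 (-0.93 ± 0.19), the endothelial markers Pecam1, Cdh5 and Ehd3, and Cd4 (-1.03 ± 0.17) were lower, and the cholangiocyte marker Sox9 (0.61 ± 0.18) was higher. For KO against WT on chow, Spi1, Pecam1, Ehd3, Eng and the stellate cell marker Col3a1 were lower. Of the 2 lymphocyte markers tested, Ptprc was also lower and Cd4 was higher. The part of these markers in the differences at the growth arrest genes was not tested.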

How the data were processed

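H3K27ac ChIP-seq of mouse liver was analysed from 1 table of whole-number read counts that the authors deposited, per region and library, for 52645 regions and 12 libraries. The lowest count is 1. The submitters' processing notes name mm10 as the build. They list, without roles, MACS2 2.1.1, Bowtie2 2.2.1, bedtools 2.26.0, bcl2fastq 2.17.1.14 and Picard 2.8.1. The making of the shared regions and the handling of duplicates are not stated there. The 4 input libraries are not analysed here.

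Regions were given to genes with a RefSeq table of 21900 protein-coding genes of GRCm38.p6. A region belonged to the gene that holds its midpoint (the shorter where several do) or to the nearest coding gene within 50 kb. Regions in noncoding genes were kept, and leaving them out was an alternative. Counts were tested per region and summed per gene with edgeR 4.0.16 (R 4.3.3), using the robust quasi-likelihood test, TMM factors and 1 mean per group over all 12 libraries. The filter filterByExpr with a minimum count of 10 left 52606 regions and 11462 genes, and all 51 regions and 9 genes passed it. Benjamini-Hochberg adjusted p-values run over all features, and below 0.05 counted as passing. A standard error is |log2 fold change| divided by the root of the F statistic. CPM are counts scaled to the library's sum over regions or, for genes, over the regions of genes, scaled by TMM, so the region and gene scales differ. Levels are relative, so a global gain or loss of the mark would go unseen. Intervals and SDs cover these libraries only.

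Alternatives were RLE factors, DESeq2 1.42.0, no filter, mitochondrial regions left out, a term for the library with the highest mitochondrial share, only the groups compared, regions within 10 kb or within 2.5 kb of a gene end, and each library left out. Regions of noncoding genes left out, a term for the 2 sets of mitochondrial share, and the p53 element search were added after seeing the data. On simulated counts for the diet contrast in WT, the test recovered 26 of 50 regions and 49 of 50 genes changed by 2.0-fold. At 1.5-fold it recovered 4 of 50 regions and 22 of 50 genes. The changed features left out those with the lowest mean levels, so recovery at the weakest regions was not measured. The members, gene lists and tests were chosen with earlier results of these data known. The genes named are all 9 members, with every region that passed in any comparison and the strongest region of each gene, the 5 genes most like Cdkn1a, of which 1 is not reported here, and the listed genes that passed. The Myc region beyond the distance limit was named for its distance. The Gadd45g region at 63.4 kb was not the next by distance, and its log2 difference between genotypes on PTU/LID was large, at 1.82. The Btg1 region at 68.0 kb was named for its level.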

Additional observations from a re-analysis of the deposited data

How the results depend on the processing

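No direction of a called value turned round under any alternative run. With only the groups compared, the regions that passed were 0 in place of 3 for the diet in WT and 2 in place of 0 for KO against WT on chow, and the genes were 0 in place of 1 for the diet in WT, 2 in place of 0 for KO against WT on chow, Myc and Gadd45a, and 1 in place of 2 for KO against WT on PTU/LID. With a term for the 2 sets of mitochondrial share, the regions were 4 in place of 7 for the diet in KO, 1 in place of 0 for KO against WT on chow and 7 in place of 3 for KO against WT on PTU/LID, and the genes were 5 in place of 2 for KO against WT on PTU/LID and 1 in place of 0 for the difference between the diet contrasts. DESeq2 gave 4 genes for KO against WT on PTU/LID and 1 for the difference between the diet contrasts. For the diet in WT, 0 genes passed without regions in noncoding genes, with regions within 10 kb, or with a term for the library of highest mitochondrial share. Without regions in noncoding genes 1 gene passed for KO against WT on PTU/LID. Cdkn1a has no region within 2.5 kb of a gene end and so no value there: of the other 8 genes 0 passed for the diet in WT, and 1 for the diet in KO, Btg2 (0.52, adjusted p = 0.0240), which did not pass with all its regions, while Gadd45g and Btg1 lost their calls. The cause of these shifts was not tested. Shares of all regions and all genes that passed under an alternative are not given here. Whether the counts of the growth arrest genes and their regions moved more than those of all features was therefore not tested. With 1 library left out, the regions that passed ran from 0 to 4 for the diet in WT, 4 to 8 for the diet in KO, 0 to 0 for KO against WT on chow, 0 to 4 for KO against WT on PTU/LID and 0 to 0 for the difference between the diet contrasts. The genes ran from 0 to 1, 1 to 6, 0 to 0, 1 to 4 and 0 to 1 in the same order. Of 882 values under an alternative, 767 stayed on the same side of the threshold or within 1.5 times a count, 76 lost a call, 24 gained one and 15 were counts that moved further. Mitochondrial regions left out has no value per gene, since gene sums hold no such region, and the difference between the diet contrasts has no fit with only the groups compared. DESeq2 gave no adjusted p for 1 region of Cdkn1b in the WT diet contrast and 1 of Gadd45g between genotypes on PTU/LID. No paired analysis was possible because the H3K27ac groups share no replicate number. Depth limits single regions: counts ran from 3 to 574 in the 51 regions.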
